A study of Mus musculus with 8 samples.

Results

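Gene expression in the superior retina, the dorsal part of the mouse retina, was compared between mice exposed to hyperoxia and control mice. The comparison used 4 of the 8 arrays of the series, 2 titled as superior retina after hyperoxia and 2 titled as superior retina of controls, and took in all 28853 probe sets of an Affymetrix Mouse Gene 1.0 ST array. All mice were C57BL/6J, a pigmented laboratory strain, and lived in dim cyclic light of 5 lux with 12 h of light and 12 h of darkness. The hyperoxia groups lived in 75% oxygen for 14 days, starting when the animals were 83 to 90 days old, while the control groups lived in normoxia. Each array held pooled retinal RNA of 2 animals, 1 male and 1 female, so that the spread between replicates is a spread between 2 pools, and 100 ng of RNA was labelled per array. The other 4 arrays held inferior retina of the same 2 conditions. They entered the same model, where they add to the estimate of the spread, and they serve here only to show where the superior retina differed.

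The retina consumes much oxygen, and its photoreceptors are supplied mainly by diffusion from the choroid, a supply that is not adjusted to tissue demand. Cells sense oxygen through hypoxia inducible factor (HIF), whose alpha subunits are hydroxylated by the EGLN enzymes and degraded when oxygen is plentiful, and whose targets include glycolytic enzymes, the lactate exporter *Slc16a3* and vascular endothelial growth factor. When photoreceptors are damaged, Muller cells, the radial glia of the retina, make the intermediate filament protein GFAP, and microglia, its resident macrophages, become activated.

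Values are log2 expression as the authors deposited them, and a change is the mean log2 value of the hyperoxia arrays minus that of the control arrays. The arrays had like median values, between 6.98 and 7.05 over all 8. Genes that mark the superior retina fitted the labels: *Tbx5*, a dorsal transcription factor, had log2 values of 6.29 and 6.41 on the hyperoxia and 6.48 and 6.32 on the control superior arrays, and between 4.99 and 5.34 on the inferior arrays. The summed linear signal of 26 rod genes was 166862 and 162746 after hyperoxia, against 163356 and 169385 in controls. Genes of the retinal pigment epithelium, the pigmented layer behind the retina, were also present and differed between the groups. The summed linear signal of 32 such genes was 17340 and 18494 after hyperoxia, against 8024 and 12372 in controls, and none of them was at 0. Lens genes had a summed signal of 2584 and 3052 after hyperoxia and 2302 and 4443 in controls, while control inferior replicate 2 stood apart at 49527.

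Few genes passed the test across the whole array. In the superior retina 4 probe sets rose after hyperoxia (0.0139% of those tested) and 1 fell (0.00347%) at an adjusted p under 0.05 by limma, and each stood for a gene: *Serpine3*, *Gfap*, *Ly86* and *Osmr* were higher and *2610528A11Rik* was lower. At an unadjusted p under 0.05 there were 1612 probe sets (5.59%), 989 of them higher after hyperoxia (3.43%) and 623 lower (2.16%). All 5 genes also passed in the inferior retina, in the same direction. With only the superior arrays in the fit 3 of the 5 passed. Without either hyperoxia superior array, either control superior array or either hyperoxia inferior array none of the 5 passed, and without either control inferior array 3 of them did.

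*Serpine3*, on chromosome 14 at 62663298 to 62692243 of GRCm38.p6, encodes a member of the serpin family of protease inhibitors. It had log2 values of 8.52 and 8.68 after hyperoxia, against 6.51 and 6.67 in controls. The groups lay far apart, and *Serpine3* rose by 2.01 in log2 units (standard error 0.19, adjusted p = 0.0296 by limma), the largest change of the 5. In the inferior retina its change was 1.26, and it is the only 1 of the 4 higher genes whose change was larger in the superior retina (unadjusted p of the difference 0.0213).

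*Gfap* (chromosome 11, 102887336 to 102897200), the glial filament gene, had log2 values of 8.05 and 8.29 after hyperoxia, against 7.05 and 6.80 in controls. It rose by 1.25 (standard error 0.12, adjusted p = 0.0296). In RNA of whole tissue, more cells of a type and more RNA per cell cannot be told apart, here and for every gene below. *Ly86*, which encodes the MD-1 protein of macrophages and B cells, had 7.86 and 7.84 after hyperoxia, against 6.72 and 6.75 in controls, the closest replicates among the 4 higher genes. It rose by 1.11 (standard error 0.10, adjusted p = 0.0296). *Osmr*, a receptor subunit for oncostatin M that signals through STAT3, had 7.82 and 7.94 after hyperoxia, against 7.03 and 6.86 in controls, and rose by 0.93 (standard error 0.10, adjusted p = 0.0457).

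*2610528A11Rik* (chromosome 14, 37102140 to 37110101), listed under the synonym *Gpr15l* for the ligand of the receptor GPR15, had log2 values of 7.58 and 7.52 after hyperoxia, against 8.95 and 8.95 in controls. The 4 values fall into 2 tight pairs, and the gene fell by 1.40 in log2 units (standard error 0.11, adjusted p = 0.0245), the smallest p of all probe sets. The inferior retina gave a change of -1.40 as well. The fold ratio (FR), the linear ratio of hyperoxia over control, was 0.380 for *2610528A11Rik*, 4.04 for *Serpine3*, 2.37 for *Gfap*, 2.16 for *Ly86* and 1.91 for *Osmr*.

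**Figure D1:**
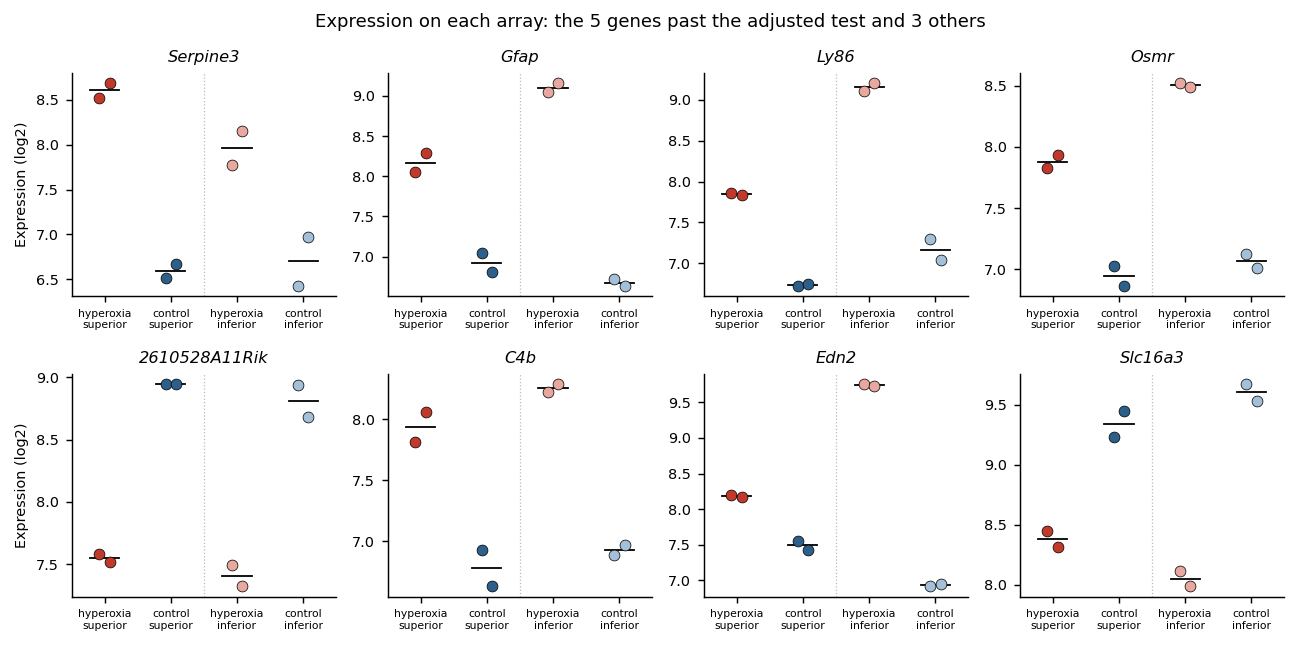
Log2 expression on each of the 8 arrays (points, replicates side by side) with the mean of each group (black line) for the 5 genes past the adjusted test and for *C4b*, *Edn2* and *Slc16a3*; and each panel has its own vertical axis. In the superior retina both hyperoxia arrays lie on 1 side of both control arrays for all 8 genes, and *Edn2* shows a superior change of 0.70 beside an inferior change of 2.81.

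Next in order of p, and short of the threshold, came *C4b*, which encodes complement component C4. It had log2 values of 7.81 and 8.06 after hyperoxia, against 6.93 and 6.63 in controls, a change of 1.15 (standard error 0.13, adjusted p = 0.0525 by limma), and it passed after quantile normalization or median centring. *Slc16a3*, the lactate exporter MCT4, had 8.45 and 8.31 after hyperoxia, against 9.23 and 9.45 in controls, a change of -0.96 (standard error 0.11, adjusted p = 0.0719). *Edn2*, the gene of the peptide endothelin 2, had 8.20 and 8.17 after hyperoxia, against 7.55 and 7.43 in controls, a change of 0.70 (standard error 0.09, adjusted p = 0.0913). *Ak4*, an adenylate kinase, was measured by 2 probe sets that differed in size but not in sign. The weaker set had a change of -1.12 (adjusted p = 0.0719) and the brighter set, which stands for the gene, one of -0.47. *Ak4* was chosen after its values were seen.

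At the thresholds of the study's methods, an unadjusted p up to 0.05 from the contrast within a 2-way model together with an FR above 2 or below 0.5, the number was 12 probe sets, 9 higher (0.0312% of all) and 3 lower (0.0104%). The 9 were *Serpine3*, *Serpina3n*, *Tyr*, *Gfap*, *Cltrn*, *Trf*, *A2m*, *C4b* and *Ly86*, and the 3 were *2610528A11Rik*, *Ifi214* and *Ak4*. The number was 19 without control superior replicate 1, 10 of them higher and 9 lower.

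The genes with the largest changes were mostly of 2 kinds on the higher side. Among the 15 with the largest increase in log2 value that had an unadjusted p under 0.05 and no overlap between the groups, *Serpina3n*, *A2m*, *C4b*, *Gfap* and *Serpine3* belong to glial stress, complement and protease inhibition. *Serpina3n*, a secreted serpin made by reactive astrocytes, had log2 values of 10.14 and 10.66 after hyperoxia, against 8.83 and 8.56 in controls, a change of 1.71 (adjusted p = 0.245). *A2m*, which encodes the protease trap alpha-2-macroglobulin, had 9.49 and 9.70 after hyperoxia, against 8.49 and 8.29 in controls, a change of 1.21 (adjusted p = 0.302). The other kind were genes of pigmented cells and the pigment epithelium, *Dct*, *Gpnmb*, *Rgr*, *Tyrp1*, *Tyr*, *Pmel*, *Rdh5* and *Ttr*, with changes between 1.14 and 1.65, described below. *Trf* and *Cltrn* made up the 15.

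On the lower side, the 15 with the largest decrease was led by *2610528A11Rik*, *Ifi214* and *Slc16a3*, and held 1 glycolytic enzyme, *Pfkl*, the liver type of phosphofructokinase. *Ifi214*, an interferon-inducible gene of the PYHIN family, had a change of -1.13 at low log2 values of 3.44 and 3.13 after hyperoxia, against 4.45 and 4.39 in controls. *Spc25*, a subunit of the NDC80 complex of the kinetochore, was measured at a higher level, with 9.61 and 9.54 after hyperoxia, against 10.27 and 10.16 in controls, and a change of -0.64 (unadjusted p = 9.04e-05). The histone gene *H3c15*, the keratins *Krt6a* and *Krt6b*, *Plac8*, *Zfp229*, *Rny1*, *Olfr118*, *Vmn1r201*, *1600014C23Rik* and *4933408J17Rik* had changes between -0.87 and -0.63. None of these passed the adjusted test in the superior retina, while *Spc25* fell in the inferior retina by 0.94 (adjusted p = 0.00379).

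Genes that HIF controls, glycolytic enzymes among them, stood lower after hyperoxia as a group. Of 32 such genes measured, 17 were lower at an unadjusted p under 0.05 and 0 were higher, where 1.97% of all 19938 genes were lower and 3.27% higher. Both hyperoxia arrays lay below both control arrays for 19 of the 32 (17.6% of all genes) and above them for 2 (18.7%). The median change was -0.20, against 0.0023 for all genes, and none of the 32 passed the adjusted test in the superior retina. Leaving out 1 superior array at a time left between 14 and 15 of them lower, and 10 were lower with the pigment epithelium median of each array as a covariate.

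The 17 lower genes included glycolytic enzymes, the lactate exporter and 1 HIF hydroxylase. Among the glycolytic enzymes, *Pfkl* had log2 values of 10.43 and 10.59 after hyperoxia, against 11.05 and 11.30 in controls, a change of -0.67 (standard error 0.14). *Pgam1*, phosphoglycerate mutase, had 11.13 and 11.40 after hyperoxia, against 11.76 and 11.80 in controls. *Pgk1*, phosphoglycerate kinase, had 11.82 and 11.82 after hyperoxia, against 12.30 and 12.21 in controls. In each of these the groups were well apart, and *Pfkp*, *Aldoa*, *Tpi1* and *Ldha* were lower by smaller steps, with changes of -0.45, -0.37, -0.30 and -0.20. *Pdk1*, the kinase that restrains pyruvate dehydrogenase, had a change of -0.39.

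Among the regulators, *Bnip3*, a mitochondrial receptor for autophagy, had log2 values of 9.67 and 9.85 after hyperoxia, against 10.26 and 10.41 in controls, a change of -0.57 (standard error 0.10, unadjusted p = 0.000402). Its relative *Bnip3l* had a change of -0.21. *Egln1*, the main HIF hydroxylase, had 9.0 and 8.96 after hyperoxia, against 9.44 and 9.58 in controls, a change of -0.53. *Kdm3a*, a histone demethylase, had 8.89 and 8.90 after hyperoxia, against 9.28 and 9.43 in controls, and *Ddit4*, an inhibitor of the mTORC1 kinase, had 8.69 and 8.73, against 9.12 and 9.18. Replicates of these genes lay closer to each other than to the other group. *P4ha1*, a collagen prolyl hydroxylase, *Ankrd37* and *Vegfa* completed the 17, with changes of -0.45, -0.47 and -0.32.

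The other 15 members had an unadjusted p of 0.05 or more. *Hk1*, *Pkm*, *Aldoc*, *Slc2a1*, *Slc2a3*, *Car9*, *P4ha2*, *Ndufa4l2*, *Higd1a*, *Adm* and *Egln3* overlapped between the groups, with changes between -0.14 and 0.06, and *Hk2* and *Mxi1* lay below the controls at -0.17 and -0.05. *Epo* and *Car12* lay above the controls, at 0.05 and 0.62. *Slc2a1*, the glucose transporter GLUT1, had log2 values of 11.57 and 11.74 after hyperoxia, against 11.41 and 11.78 in controls. Several genes that overlapped here had a change in the inferior retina: *Egln3* had a superior change of 0.01 and an inferior one of -0.48 (unadjusted p of the difference 0.0108), and *Slc2a1* was at 0.06 and -0.47 (0.0361).

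The promoter windows of *Slc16a3*, *Bnip3* and *2610528A11Rik* are printed. They run from 250 bases before to 50 bases after a start annotated in RefSeq (GRCm38.p6). For *Slc16a3* that start lies inside the gene interval, which begins at 120948484. *2610528A11Rik* and *Slc16a3* were chosen as among the 15 largest decreases, and *Bnip3* for the smallest p of the HIF list after *Slc16a3*. Capitals mark ACGTG, the core of the hypoxia response element, searched on both strands, where matches on opposite strands may overlap.
Slc16a3 (chr11:120948817-120949116, plus strand): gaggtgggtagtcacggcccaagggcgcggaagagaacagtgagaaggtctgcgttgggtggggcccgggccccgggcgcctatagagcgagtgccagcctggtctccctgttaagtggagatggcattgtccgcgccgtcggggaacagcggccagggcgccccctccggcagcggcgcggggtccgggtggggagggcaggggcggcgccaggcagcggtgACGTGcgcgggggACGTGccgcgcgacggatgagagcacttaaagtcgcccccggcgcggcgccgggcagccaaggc
Bnip3 (chr7:138909457-138909756, minus strand): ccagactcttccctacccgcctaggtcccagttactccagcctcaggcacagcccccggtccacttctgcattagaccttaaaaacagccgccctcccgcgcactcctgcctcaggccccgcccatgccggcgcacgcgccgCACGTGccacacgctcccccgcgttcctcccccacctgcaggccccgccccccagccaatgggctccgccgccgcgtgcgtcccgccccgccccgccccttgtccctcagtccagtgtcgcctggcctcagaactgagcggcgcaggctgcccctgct
2610528A11Rik (chr14:37110052-37110351, minus strand): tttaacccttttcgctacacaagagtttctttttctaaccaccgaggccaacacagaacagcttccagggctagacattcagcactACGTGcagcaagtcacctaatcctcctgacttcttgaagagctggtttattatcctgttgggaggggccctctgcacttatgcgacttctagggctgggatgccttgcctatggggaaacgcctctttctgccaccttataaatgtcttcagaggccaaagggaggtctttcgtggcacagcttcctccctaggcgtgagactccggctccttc
Positions are counted from the start that each window uses. *Slc16a3* held the motif at 27 and 14 bases before it. *Bnip3* held the motif on both strands in an overlapping pair at 108 and 107 bases, and *2610528A11Rik* held it once, at 164 bases. Of 32851 promoter windows in the table, 19.6% held the motif. It was in 23 of 41 windows (56.1%) of the 29 HIF genes with an entry and in 12 of 23 windows (52.2%) of the 16 lower ones with an entry, so that the lower genes held it about as often as their list, which was itself drawn from known HIF targets. A match is a description of the sequence and not of binding.

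**Figure D2:**
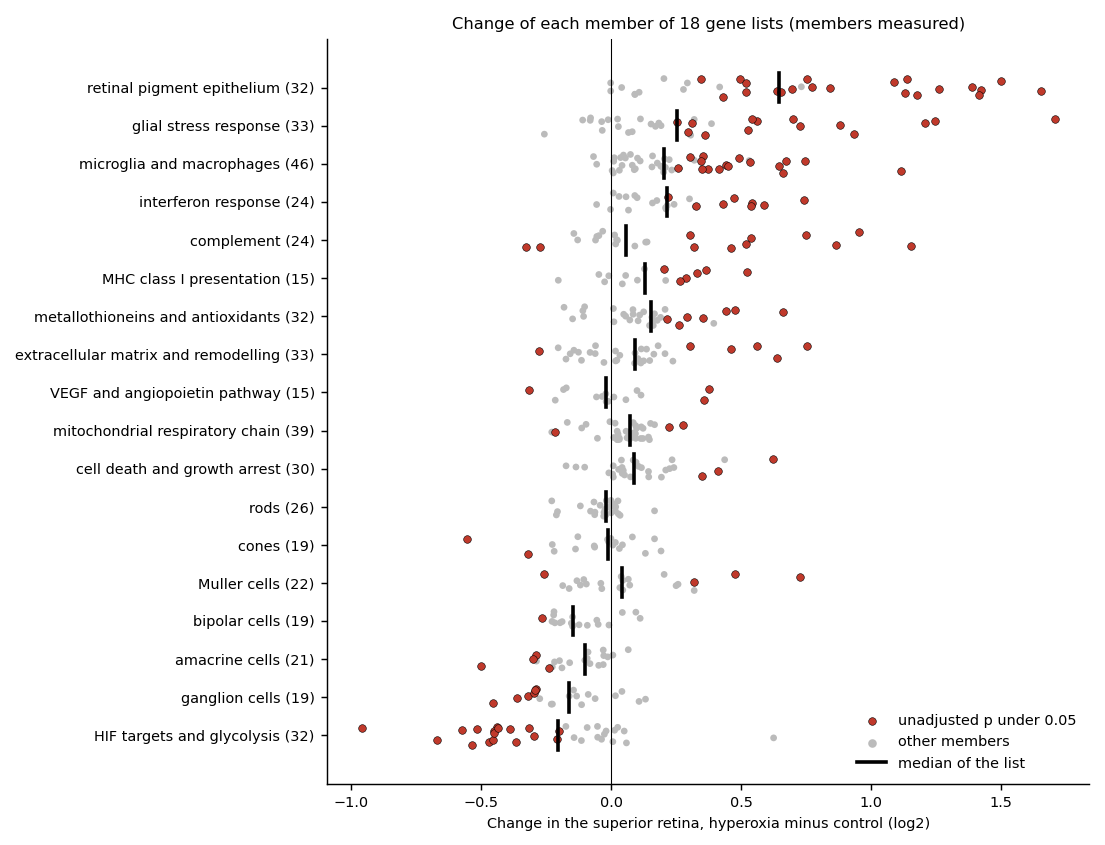
Change in the superior retina (hyperoxia minus control, log2, horizontal axis) of each measured member of 18 gene lists (rows, with the number of members), where red points have an unadjusted p under 0.05 by limma and black bars are medians. The pigment epithelium list lies highest, at a median of 0.65, and the HIF list lowest, at -0.20, while rod genes centre on -0.02.

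Genes of the glial stress response stood higher. Of 33 measured, 14 were higher at an unadjusted p under 0.05 (3.27% of all genes) and 0 lower, with *Gfap* and *Osmr* past the adjusted test, and 20 lay above both control arrays (18.7% of all genes). The median change was 0.25, and without 1 superior array at a time 11 to 14 members were higher. The study's tables name 12 of the 33, so that the list is not independent evidence of its direction. With the pigment epithelium covariate 12 were higher.

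Within this list, the members of the STAT3 pathway were graded. *Osmr* is described above. *Stat3* itself had log2 values of 9.54 and 9.56 after hyperoxia, against 9.05 and 9.0 in controls, a change of 0.53 (standard error 0.09, adjusted p = 0.302), with no overlap. *Socs3*, the feedback inhibitor of STAT3, had 7.64 and 7.57 after hyperoxia, against 7.54 and 7.33 in controls, a change of only 0.17 (unadjusted p = 0.201). Ligands and other receptors of the family, *Lif*, *Clcf1*, *Lifr*, *Il6st* and *Cntfr*, had changes between -0.26 and 0.08. *Bcl3* and *Cebpd*, transcriptional regulators of acute phase responses, had changes of 0.56 and 0.36.

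Secreted and protective members followed. *Chil1*, a chitinase-like protein of reactive glia, had log2 values of 9.98 and 10.12 after hyperoxia, against 9.29 and 9.05 in controls, a change of 0.88 (adjusted p = 0.163). *Fgf2*, a growth factor known to protect photoreceptors, had 8.64 and 8.67 after hyperoxia, against 8.10 and 8.14 in controls, a change of 0.54 (adjusted p = 0.302). *Gadd45b*, a stress and growth arrest gene, had 8.77 and 8.92 after hyperoxia, against 8.18 and 8.06 in controls, a change of 0.73 (adjusted p = 0.245). These 3 were separated from controls by more than their replicates differed, but did not pass the adjusted test. *Timp1* and *S100a6* had changes of 0.18 and 0.11, and *Lcn2*, lipocalin 2, had one of 0.25 (unadjusted p = 0.0325). The intermediate filament gene *Vim* had a change of 0.32 (unadjusted p = 0.266), well short of that of *Gfap*.

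The promoter window of *Gfap*, the best known marker of this response, is printed with capitals on TTCNNNGAA, the palindromic motif that STAT3 binds, which reads the same on both strands.
Gfap (chr11:102897151-102897450, minus strand): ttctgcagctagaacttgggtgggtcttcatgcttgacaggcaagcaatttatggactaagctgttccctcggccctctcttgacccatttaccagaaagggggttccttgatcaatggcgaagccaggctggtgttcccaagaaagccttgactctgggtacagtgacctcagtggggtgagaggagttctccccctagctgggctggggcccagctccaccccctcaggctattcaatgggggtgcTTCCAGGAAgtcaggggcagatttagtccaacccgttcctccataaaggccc
The match began 2 bases before the annotated start. This motif was in 8.3% of all promoter windows and in 3 of 36 windows (8.33%) of the glial stress genes with an entry, a share near that of all windows.

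Microglia and macrophage genes also stood higher, with smaller changes than the leading glial genes. Of 46 measured, 44 had a change above 0, 28 lay above both control arrays (18.7% of all genes) and 16 were higher at an unadjusted p under 0.05 (3.27%), with 0 lower. The median change was 0.20, and *Ly86* passed the adjusted test. The number was between 12 and 16 without 1 superior array at a time and 9 with the pigment epithelium covariate, while the median stayed at 0.21 with it. The study's tables name 15 of the 46.

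The members with the smallest p after *Ly86* came next. *Ctss*, the lysosomal protease cathepsin S, had log2 values of 9.70 and 9.83 after hyperoxia, against 9.09 and 8.94 in controls, a change of 0.75 (adjusted p = 0.163). *Csf1r*, the growth factor receptor on which microglia depend, had 7.59 and 7.63 after hyperoxia, against 7.08 and 7.15 in controls, a change of 0.49 (adjusted p = 0.302). *Laptm5*, a lysosomal membrane protein of leukocytes, had 7.31 and 7.56 after hyperoxia, against 6.90 and 6.65 in controls, a change of 0.66. *Mpeg1*, *Cd68*, *Itgb2*, *Cd53*, *Fcer1g*, *Aif1*, *Tyrobp* and *Pld4* had changes between 0.35 and 0.65, while *Fcgr3*, *Fcrls*, *Cd33* and *Cd180* had changes between 0.01 and 0.10.

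Among genes that mark microglia at rest, changes were 0.20 for *Cx3cr1*, 0.08 for *P2ry12*, 0.07 for *Tmem119* and 0.18 for *Siglech*, at unadjusted p of 0.165 or above. *P2ry13* was at 0.30 (unadjusted p = 0.0248), and the median of all 46 microglia and macrophage genes was 0.20. Genes that rise in activated microglia were mixed: *Lyz2* had a change of 0.67, *Clec7a* 0.53, *Trem2* 0.09, *Lpl* 0.04 and *Cst7* -0.07, of which *Lyz2* had an unadjusted p under 0.05. The resting and activated markers were chosen from the list after their values were seen. Genes of other blood leukocytes (T, B and natural killer cells and neutrophils) had a median change of -0.01. At an unadjusted p under 0.05, 0 of 24 were higher (3.27% of all genes), and *Ly6g* alone was lower (1.97%), at -0.34. Only 2 of the 24 had a mean log2 value of 6 or more, so these mostly dim genes say little about such cells.

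Of 24 complement genes, 9 were higher at an unadjusted p under 0.05 (3.27% of all genes) and 2 lower (1.97%), and the median was 0.06. Many members were dim. With probe sets of mean log2 under 6 left out, 11 members remained, with a median of 0.52, 7 higher (3.9% of the genes left) and 0 lower (2.47%). Of the 9, 6 belong to the classical pathway or restrain it. *C1qc*, a chain of the recognition molecule C1q, had log2 values of 7.74 and 7.79 after hyperoxia, against 6.84 and 6.79 in controls, a change of 0.95 (adjusted p = 0.129), and *C1qa* and *C1qb* had changes of 0.75 and 0.54. *Serping1*, which inhibits the C1 proteases, had 9.32 and 9.75 after hyperoxia, against 8.71 and 8.63 in controls, a change of 0.86. *C2*, the proenzyme of the C3 convertase, had 6.13 and 6.27 after hyperoxia, against 5.73 and 5.75 in controls, a change of 0.46 (unadjusted p = 0.00121). Its inferior change was -0.09, and the difference between the regions had an unadjusted p of 0.00329. *Cd55*, which speeds decay of the convertase, and *C5ar1*, the C5a receptor, were the 2 lower members, at -0.33 and -0.27, and the proteases *C1ra* and *C1s1*, *C9* and the receptor *C3ar1* had changes between -0.06 and 0.02.

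Interferon-stimulated genes had a median change of 0.21. Of 24 measured, 8 were higher at an unadjusted p under 0.05 (3.27% of all genes) and 14 lay above both control arrays (18.7%), and the number was 5 without hyperoxia superior replicate 2. *Irf9*, a subunit of the transcription factor ISGF3, had log2 values of 7.90 and 7.90 after hyperoxia, against 7.32 and 7.30 in controls, a change of 0.59 (standard error 0.09, adjusted p = 0.245) with the replicates nearly equal. *Ifitm3*, a membrane protein that restricts viral entry, had 9.29 and 9.44 after hyperoxia, against 8.51 and 8.75 in controls, a change of 0.74, and *Ifit1* and *Gbp3* had changes of 0.43 and 0.47. *Usp18* and *Bst2*, also induced by interferon, were at 0.03 and 0.07.

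Of 15 genes of MHC class I presentation, 6 were higher at an unadjusted p under 0.05 (3.27% of all genes). *B2m*, the light chain of MHC class I, had log2 values of 9.95 and 10.02 after hyperoxia, against 9.48 and 9.45 in controls, a change of 0.52 (adjusted p = 0.302). The proteasome subunits *Psme2* and *Psmb8* and the peptide transporter *Tap1* had changes of 0.33, 0.36 and 0.26. The number was less stable than that of the other immune lists: 1 without control superior replicate 1, 3 without either hyperoxia superior array, 4 without control superior replicate 2 or either control inferior array, and 1 with the pigment epithelium covariate. Among 24 cytokines and chemokines 2 were higher (3.27% of all genes) and 2 lower (1.97%) at an unadjusted p under 0.05. *Ccl12*, a chemokine for monocytes, had 5.31 and 5.08 after hyperoxia, against 4.33 and 4.70 in controls, a change of 0.69, and *Tnf* had a change of -0.37 at a low level. Without hyperoxia superior replicate 1 or control superior replicate 1 the cytokine numbers were 3 higher and 0 lower.

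Metallothioneins and antioxidant genes had a median change of 0.15, and 7 of 32 were higher at an unadjusted p under 0.05 (3.27% of all genes). *Gpx3*, a secreted glutathione peroxidase, had log2 values of 10.02 and 10.32 after hyperoxia, against 9.61 and 9.41 in controls, a change of 0.66 (unadjusted p = 0.00658). *Mt2*, a metal-binding metallothionein, had 9.99 and 10.28 after hyperoxia, against 9.47 and 9.84 in controls, a change of 0.48, while its neighbour *Mt1* was at 0.08. *Sod3*, the extracellular superoxide dismutase, was at 0.35. The median was 0.17 without hyperoxia superior replicate 1 and 0.08 without replicate 2 of that group. It was 0.10 without control superior replicate 1 and 0.18 without control superior replicate 2. With the pigment epithelium covariate the number higher was 0 and the median 0.06.

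The respiratory chain, heat shock and clock genes were near controls. At an unadjusted p under 0.05, where 3.27% of all genes were higher and 1.97% lower, these lists held few members. Of 39 nuclear genes of the mitochondrial respiratory chain, 2 were higher (*Sdhb* at 0.28 and *Sdhd* at 0.22, both subunits of succinate dehydrogenase) and 1 lower (*Cox5a* at -0.22) at an unadjusted p under 0.05, and the median was 0.07. Among 24 genes of the heat shock and unfolded protein responses, *Ero1a*, an oxidase of the endoplasmic reticulum, was lower at -0.28 and none was higher. Among 26 immediate early genes 2 were lower, *Dusp1* at -0.42 and *Nr4a3* at -0.30, and 20 of the 26 had a change below 0. Counts this small rested on single arrays. The immediate early number lower was 0 without hyperoxia superior replicate 1 or control superior replicate 1 and 5 without control superior replicate 2, and the respiratory chain number higher was 0 without hyperoxia superior replicate 2 or control superior replicate 1 and 4 without control superior replicate 2. The 18 clock genes had changes between -0.18 and 0.04 with none at an unadjusted p under 0.05.

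Of 30 genes of cell death and growth arrest, 3 were higher at an unadjusted p under 0.05 (3.27% of all genes). *Tnfrsf1a*, the main receptor for tumour necrosis factor, had log2 values of 7.65 and 7.92 after hyperoxia, against 7.22 and 7.09 in controls, a change of 0.62 (unadjusted p = 0.000712). *Fas*, a death receptor, and *Ripk3*, a kinase of necroptosis, had changes of 0.41 and 0.35 at lower levels. The number was 1 without control superior replicate 2 and 5 without either hyperoxia inferior array, and 1 with the pigment epithelium covariate.

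Genes of the pigment epithelium and of pigmented cells had the highest median of all lists, 0.65. Of 32 measured, 21 were higher at an unadjusted p under 0.05 (3.27% of all genes), 28 lay above both control arrays (18.7%), and none was lower, yet none passed the adjusted test. The size depended in part on single control arrays. Without control superior replicate 1 the median was 0.36, and without control superior replicate 2 it was 0.93. With either hyperoxia superior array left out the median was 0.62.

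The members fell into 2 patterns. Genes of the visual cycle in the pigment epithelium were low mainly on 1 control array. *Rpe65*, the isomerase that regenerates the chromophore of visual pigment, had log2 values of 9.09 and 9.22 after hyperoxia, against 7.25 and 8.81 in controls. *Rgr*, a photoisomerase, had 11.33 and 11.35 after hyperoxia, against 9.22 and 10.62 in controls, and *Rdh5*, a retinol dehydrogenase, had 9.16 and 9.27, against 7.40 and 8.67. *Ttr*, the retinol and thyroxine carrier, had 11.72 and 11.68 after hyperoxia, against 9.82 and 11.30 in controls. In all 4 the second control array lay nearer to the hyperoxia arrays than to the first control array.

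Genes of melanin synthesis were low on both control arrays. *Tyr*, the first enzyme of melanin synthesis, had log2 values of 6.71 and 6.59 after hyperoxia, against 5.14 and 5.39 in controls, a change of 1.39 (standard error 0.31, adjusted p = 0.506), and it passed with only the superior arrays in the fit. *Tyrp1* had 9.65 and 9.79 after hyperoxia, against 8.12 and 8.49 in controls. *Dct*, dopachrome tautomerase, had 10.38 and 10.80 after hyperoxia, against 8.56 and 9.32 in controls. The replicates of each group were closer to each other than to the other group. In the inferior retina both groups overlapped for these genes and *Pmel*, with changes of -0.33 for *Tyr*, -0.38 for *Tyrp1*, -0.63 for *Dct* and -0.81 for *Pmel*, and the difference between the regions had an unadjusted p between 0.00408 and 0.028. *Best1*, *Krt8* and the probe set that stands for *Mitf*, also in the list, were within 0.04 of controls. For *Mitf* the study's own table differs, with a higher value after hyperoxia in the superior and a lower one in the inferior retina. Whether another probe set accounts for this was not tested.

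Because these transcripts moved with the groups, the limma fit was also run with the pigment epithelium median of each array as a covariate. None of the 5 genes then passed the adjusted test, and their changes were 1.56 for *Serpine3*, 1.44 for *Gfap*, 1.27 for *Ly86*, 1.10 for *Osmr* and -1.23 for *2610528A11Rik*. That covariate was 0.24 and 0.27 on the hyperoxia and -0.60 and -0.13 on the control superior arrays, and so overlapped with the comparison itself. A loss of calls with it therefore cannot be assigned to pigment tissue. *Trf*, which encodes the iron carrier transferrin, had log2 values of 11.51 and 11.78 after hyperoxia, against 9.99 and 10.86 in controls, a change of 1.22 (unadjusted p = 0.00249), and lay low on the same control array as the visual cycle genes. Other tissues next to the retina moved less: 3 of 23 genes of choroid and sclera and 4 of 14 of ciliary body and iris were higher at an unadjusted p under 0.05 (3.27% of all genes), 0 of either with the covariate. Of 24 lens genes 0 were higher or lower, but 15 were lower with the covariate, a fit that includes the inferior array with the high lens signal. The part of these tissues in the other changes was not tested by any other means.

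**Figure D3:**
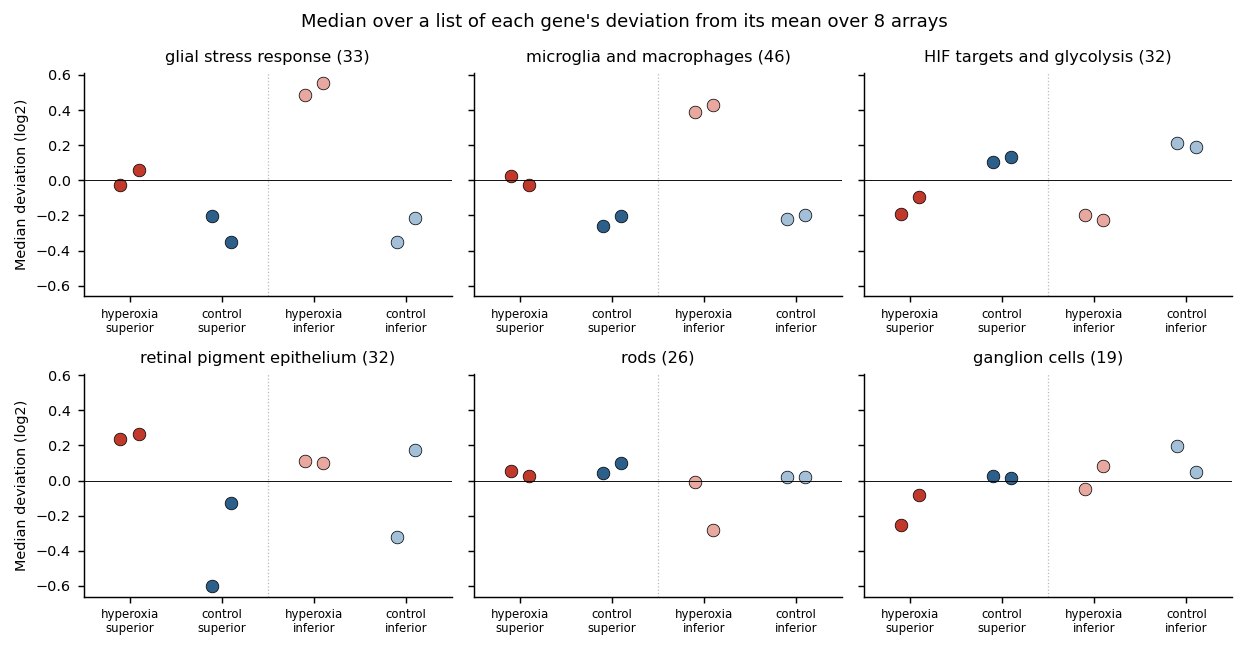
For 6 gene lists (panels, with the number of members), the median over the list of each gene's deviation from its own mean over 8 arrays (vertical axis, log2), 1 point per array and groups along the horizontal axis. Control superior replicate 1 stands apart in the pigment epithelium list at -0.60, against 0.24 and 0.27 after hyperoxia and -0.13 for the other control, whereas the glial, microglial and HIF lists separate the superior groups with both replicates close.

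Photoreceptor genes had small changes. Of 26 rod genes none had an unadjusted p under 0.05, their changes ran between -0.23 and 0.17, and the median was -0.02. *Gngt1*, the gamma subunit of rod transducin, had log2 values of 11.59 and 11.55 after hyperoxia, against 11.77 and 11.79 in controls, a change of -0.21 (unadjusted p = 0.0587). Of 19 cone genes 2 were lower (1.97% of all genes): *Kcne2*, a potassium channel subunit, at -0.32 (unadjusted p = 0.00586), and *Opn1sw*, the short-wave cone opsin. *Opn1sw* had 11.06 and 10.45 after hyperoxia, against 11.10 and 11.51 in controls, a change of -0.55 (unadjusted p = 0.0232), and hyperoxia superior replicate 2 lay well below the other 3. *Opn1mw*, the middle-wave opsin, had 11.55 and 11.55 after hyperoxia, against 11.46 and 11.38 in controls. *Vax2*, a ventral transcription factor, had 8.41 and 8.06 after hyperoxia, against 8.51 and 8.95 in controls, and like *Opn1sw* it was higher in the inferior retina, with values between 9.50 and 9.83.

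Lists of inner retinal neurons had medians below 0. The median change was -0.16 over 19 ganglion cell genes, -0.15 over 19 bipolar cell genes and -0.10 over 21 amacrine cell genes, with 6, 1 and 4 lower at an unadjusted p under 0.05 (1.97% of all genes) and none higher. With the pigment epithelium covariate the medians were -0.08, 0.01 and -0.08, so that the bipolar median turned, with 0 bipolar genes lower. The neurofilament genes of ganglion cells, *Nefm* and *Nefh*, had changes of -0.46 and -0.32, and *Thy1*, a surface protein of these cells, had one of -0.29. The ganglion cell number was 0 without hyperoxia superior replicate 1, 0 without control superior replicate 1, 2 without control superior replicate 2 and 0 with the pigment epithelium covariate. Among amacrine peptides, *Vip* had 5.80 and 5.99 after hyperoxia, against 6.42 and 6.37 in controls, a change of -0.50 (unadjusted p = 0.000994), and *Tac1* and *Npy* had changes of -0.30 and -0.29. The amacrine number was 1 without hyperoxia superior replicate 1, 1 without control superior replicate 1, 7 without hyperoxia superior replicate 2 and 2 with the covariate.

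Muller cell genes were divided. *Pdpn*, a surface glycoprotein, had log2 values of 9.96 and 10.20 after hyperoxia, against 9.38 and 9.33 in controls, a change of 0.73 (unadjusted p = 0.00148), and *Rdh10*, a retinol dehydrogenase, and *Clu*, the chaperone clusterin, were higher by 0.48 and 0.32. *Glul*, the glutamine synthetase that recycles glutamate, had 12.74 and 12.98 after hyperoxia, against 13.15 and 13.09 in controls, a change of -0.26 (unadjusted p = 0.0462), while it fell in the inferior retina by 0.70 (adjusted p = 0.0416). Of the 22 members, 3 were thus higher (3.27% of all genes) and 1 lower (1.97%) at an unadjusted p under 0.05, and the other 18 did not reach it. After quantile normalization 3 were higher and 0 lower.

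Vascular genes were mostly near controls. *Vegfa*, the angiogenic growth factor, had log2 values of 8.86 and 8.89 after hyperoxia, against 9.18 and 9.20 in controls, a change of -0.32 (standard error 0.10, unadjusted p = 0.0128), while *Pgf* and *Vegfd* of the same family were higher by 0.36 and 0.38. Of 21 endothelial genes 1 was higher at an unadjusted p under 0.05 (3.27% of all genes) and 0 lower (1.97%). It was *Clec14a*, an endothelial lectin, at a change of 0.49. With probe sets of mean log2 under 6 left out, 0 of the 17 remaining endothelial genes reached that p. Of 16 pericyte and smooth muscle genes 0 had an unadjusted p under 0.05. *Edn1*, the vasoconstrictor endothelin 1, was higher by 0.28. In the extracellular matrix list 5 of 33 were higher at an unadjusted p under 0.05 (3.27% of all genes) and *Tnc* was lower (1.97%). *Vcan*, the proteoglycan versican, had 7.67 and 7.79 after hyperoxia, against 7.13 and 7.20 in controls, a change of 0.56 (adjusted p = 0.277) beside -0.14 in the inferior retina. *Thbs1*, thrombospondin 1, and *Adamts1*, a metalloprotease, had changes of 0.75 and 0.64, and the number higher was 3 without control superior replicate 1. Of 16 iron genes 4 were higher (3.27% of all genes), among them *Cp*, the ferroxidase ceruloplasmin, at 0.31, and *Slc25a37*, a mitochondrial iron importer, at 0.28. The iron number was 2 without hyperoxia superior replicate 1 and 1 without control superior replicate 2.

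Compared with the inferior retina, the superior change was mostly smaller for immune and glial genes. Of the 108 genes that rose in the inferior retina at an adjusted p under 0.05 (0.542% of genes), 107 had a superior change above 0, 92 lay above both superior control arrays (18.7% of all genes), and 107 had a smaller change in the superior retina, with a median of 0.33 against 0.95 for the inferior change. Of the 11 that fell there (0.0552%), 11 had a superior change below 0, with medians of -0.47 and -0.87. These genes were chosen for a large inferior change, so that these values are a description. The 2 regions shared no arrays, though the labels do not say whether they came from the same animals.

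The difference between the regions was itself tested. *Edn2* alone passed (0.00347% of probe sets), with log2 values of 8.20 and 8.17 on the hyperoxia and 7.55 and 7.43 on the control superior arrays, and 9.76 and 9.72 on the hyperoxia and 6.91 and 6.95 on the control inferior arrays. The superior change minus the inferior one was -2.11 on the log2 scale (adjusted p = 0.00185 by limma). At an unadjusted p under 0.05 the superior change was below the inferior in 17 of 33 glial stress genes and 27 of 46 microglial genes (2.94% of all genes), and above it in 0 of either. Among HIF genes it was above, that is less negative, in 6 of 32 (2.49% of all genes), *Slc16a3*, *P4ha1* and *Pdk1* among them, and below in 0. The study's tables name 12 of the 33 glial stress and 15 of the 46 microglial genes. Those tables came from these same arrays, in part by a regional difference in change, so the glial and microglial counts are not independent. *Bnip3*, *Kdm3a*, *Ddit4*, *Pgk1* and *Aldoa* had superior and inferior changes whose differences ran from -0.04 to 0.03, and which were -0.57 and -0.54 for *Bnip3* and -0.44 and -0.44 for *Ddit4*. In the pigment epithelium list the superior change was above the inferior in 10 of 32 members at an unadjusted p under 0.05 (2.49% of all genes). It was below in 0. The control replicates lay apart in this list, at median deviations of -0.60 and -0.13 in the superior and -0.32 and 0.17 in the inferior retina. *Serpina3n*, with a superior change of 1.71 and an inferior one of 1.78, and *C4b*, at 1.15 and 1.33, were glial and complement genes whose changes did not differ between the regions by the test (unadjusted p of the difference 0.858 and 0.357, with differences of -0.07 and -0.17 and standard errors of 0.38 and 0.18).

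**Figure D4:**
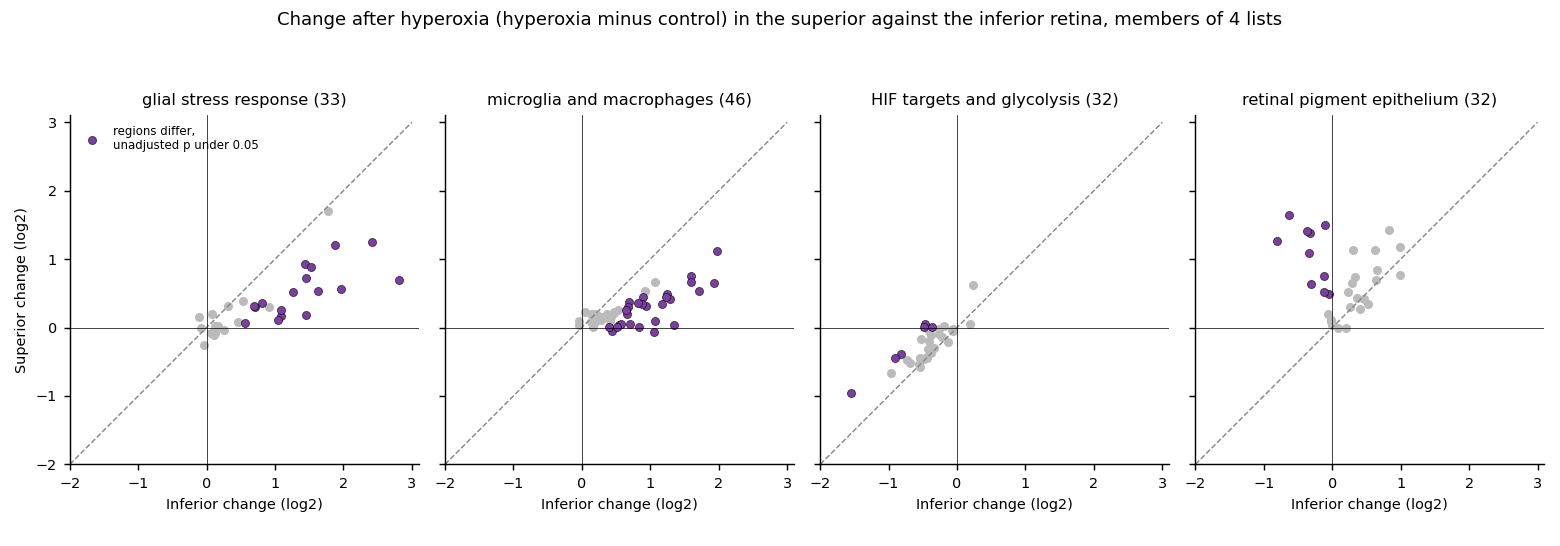
Change after hyperoxia (hyperoxia minus control, log2) in the superior retina (vertical axis) against that in the inferior retina (horizontal axis), 1 point per measured gene of 4 lists, where purple points have an unadjusted p under 0.05 for the difference between the regions and the dashed line marks equal change. Purple points lie below the line for 17 glial and 27 microglial genes, and above it for 6 HIF and 10 pigment epithelium genes. The study's tables, drawn from these same arrays in part by a regional difference in change, name 12 glial and 15 microglial members.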

How the data were processed

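RNA of superior and inferior retina was hybridised to 8 arrays (Affymetrix Mouse Gene 1.0 ST), 2 per group. The authors deposited log2 expression values of 28853 probe sets, made in Partek with robust multi-array background correction and median polish. No software version and no normalization between arrays is given in the sources used here. The values were used without further scaling. Genes were named from the platform annotation, in which 21789 probe sets had 1 symbol, 1621 several and 5443 none listed (21698 of those with 1 symbol matched by Entrez identifier). The brightest probe set with 1 symbol stood for each of 19938 genes. Group means of all 8 arrays were fitted in limma 3.58.1 (R 4.3.3) with empirical Bayes moderation. The Benjamini-Hochberg adjustment took in the whole array, with calls made under 0.05. Named genes were those past the threshold, the 15 highest and 15 lowest changes with an unadjusted p under 0.05 and no overlap, the 4 members of each list with the smallest p, and genes of the study's tables. Other list members were named after their values were seen. The comparison, its members and the 35 gene lists were chosen with earlier results of these data known, and a gene may stand in several lists. On simulated data for the superior contrast (28853 probe sets), 23.9% of 67 changes of 0.5, 83.6% of 67 changes of 1 and 100% of 66 changes of 2 on the log2 scale were found, with 10 false calls among 148. The simulated noise was independent between arrays, and the 148 calls, against 5 in the data, loosen the Benjamini-Hochberg cutoff. The shares found may therefore be higher than in the real comparison. Alternatives were other normalizations, filters, variance models, a replicate block, a pigment epithelium covariate and leaving out each array. With 2 pools per group, p-values measure the spread between these pools.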

Additional observations from a re-analysis of the deposited data

Results flagged for a closer look

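The change of *Edn2* after hyperoxia differed between the regions. The superior change minus the inferior change was -2.11 in log2 units (standard error 0.12, adjusted p = 0.00185 by limma), the superior change being 0.70 and the inferior one 2.81. Both hyperoxia arrays lay above both control arrays in each region. With 2 arrays per group, no single array could be tested for standing apart.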

How the results depend on the processing

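The 5 probe sets called in the superior retina became 12 without dim probe sets (mean log2 under 6), 9 among probe sets with 1 symbol and 21 with a variance trend. They became 2 with a replicate block, 0 with the pigment epithelium covariate, 0 by the methods' t-test, and 0 to 3 without 1 array. It was 6 after quantile normalization or median centring and 5 with the superior arrays only or a robust prior. With the probe sets of each gene averaged, *C4b*, *Edn2* and *Slc16a3* passed beside the 5 genes. The difference between regions gave 1 call, 2 without dim probe sets, 3 with a variance trend, 0 by the methods' t-test, and 1 to 30 without 1 array, where 30 came without control inferior replicate 1. At the methods' thresholds 12 became 9 to 19 without 1 array. Without 1 superior array, the change of *Gfap* ran from 1.12 to 1.37 and that of *Serpine3* from 1.93 to 2.09. No called value changed sign, and the signs of *Rgr*, *Rdh5*, *Ttr* and *Ptgds*, none of them called, turned with the covariate. For the gene lists, the covariate and the replicate block were added after seeing the data. The causes of these changes were not tested. Deviations of same-numbered arrays correlated between -0.0213 and 0.144 over pairs of groups. The study states that its replicates were run independently, so a replicate number may mark a shared run. Correlations this low do not exclude such a run, because its effect may be confined to some genes. The blocked number of 2 is therefore not set aside. With 2 pools per group, changes near 0.5 were mostly below what the test could find.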
